A study of Mus musculus with 40 samples.

Results

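Interferon beta and the chains of the interferon receptors were described in macrophages exposed to lipopolysaccharide (LPS), a component of the outer membrane of Gram-negative bacteria. The members were the 5 rows of the deposited expression table, out of 27179 genes, whose gene symbol was *Ifnb1*, *Ifnar1*, *Ifnar2*, *Ifngr1* or *Ifngr2*. The rule used gene names only and no measured value, but the members were chosen with earlier results of these data known. The study asked how the RNA-binding protein CPEB4 shapes the macrophage response to LPS. Bone marrow-derived macrophages (BMDMs) were grown with L-cell conditioned medium, a source of M-CSF, from adult male mice on a mixed C57BL/6J and 129 background, and were either untreated (0 hr) or given 10 ng/ml LPS for 1, 3, 6 or 9 hr. There were 4 wildtype (WT) mice, numbered 25, 88, 69 and 87, and 4 mice without *Cpeb4* in any cell (*Cpeb4*-/-), numbered 3, 62, 2 and 55. Each mouse gave cells for all 5 times, so each of the 10 groups held 4 libraries of polyadenylated RNA. The labels put 2 mice of each genotype in each of 2 batches, and no cage held both genotypes, so cage and genotype cannot be told apart. *Cpeb4*-/- mice 2 and 3 shared a cage, as did WT mice 87 and 88.

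Interferon beta is secreted after LPS binds TLR4 and the adaptor TRIF passes the signal to the kinase TBK1 and the transcription factor IRF3. It binds a receptor of 2 chains, IFNAR1 and IFNAR2, whose kinases TYK2 and JAK1 phosphorylate transcription factors such as STAT2. Interferon gamma, a product of T cells and NK cells, binds a different receptor, in which IFNGR1 is the ligand-binding chain and IFNGR2 the accessory chain that brings in JAK2. A macrophage exposed to LPS thus both makes interferon beta and reads it through its own receptor, while interferon gamma usually reaches it from other cells.

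*Ifnb1* has a single exon on chromosome 4 (GRCm38, the build also called mm10, GENCODE M21 annotation, chr4:88522025-88522774, minus strand). Its promoter is a textbook composite element, bound by NF-kB, by IRF factors and by ATF2 with c-Jun. The stretch from 161 to 82 bases before the RefSeq start (GRCm38.p6, chr4:88522876-88522955, minus strand) is shown because the NF-kB and IRF types of site lie near each other in it. A site for ATF2 with c-Jun was not searched. Capitals mark GGGA and TTCC at 2 bases from each other, the NF-kB type of site, and AANNGAAA, the core of an IRF site.
Ifnb1 promoter: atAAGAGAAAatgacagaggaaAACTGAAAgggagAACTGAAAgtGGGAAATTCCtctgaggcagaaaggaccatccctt
Both motifs were searched on both strands in windows of 300 bases around 32851 gene starts. The NF-kB type of site was in 1.47% of all promoters and AANNGAAA in 23.9%, and in 5.34% AANNGAAA was there at least 2 times. The *Ifnb1* window held the NF-kB type of site 1 time and AANNGAAA 3 times. Among the 4 receptor chains it was in the window of *Ifngr2* only, and AANNGAAA was in none. The letters TTCNNNGAA, which read the same on both strands and stand for a STAT site, were in 8.30% of promoters and were in those of *Ifnar1* and *Ifnar2*.

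The second sequence shown is the richest 30 bases of the *Ifnb1* 3′UTR in AUUUA, the pentamer of AU-rich elements, which many short-lived mRNAs carry. It spans bases 111 to 140 of a 3′UTR of 201 bases (chr4:88522086-88522115, GRCm38, minus strand), with AUUUA in capitals.
Ifnb1 3′UTR site: aaaacagaguuuuuauuaAUUUAuaAUUUA
The same stretch holds 1 cytoplasmic polyadenylation element (CPE, here UUUUAU), the kind of motif that CPEB proteins bind. In all, the *Ifnb1* 3′UTR held 4 AUUUA and 2 CPEs of the 7 letter forms searched. Of the 751 genes whose longest 3′UTR was within 10% of that length, 1.33% held as many AUUUA and 9.06% as many CPEs. *Ifngr2* held 6 AUUUA and 4 CPEs in 2618 bases, and *Ifnar1* 1 AUUUA and 7 CPEs in 2030 bases. *Ifnar2* (1622 bases, 1 CPE) and *Ifngr1* (541 bases, 2 CPEs) held no AUUUA. At least as many CPEs were in 42.1% of 3′UTRs of the length of *Ifnar1* and in 80.7% of those of the length of *Ifngr2*. At least as many AUUUA were in 91.9% and 39.0% of these, respectively. At least 1 AUUUA was in 86.1% of 3′UTRs of the length of *Ifnar2* and in 52.0% of those of the length of *Ifngr1*. These are counts of letters and not of bound sites.

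3 of the 4 receptor chains are neighbours. *Ifnar2* (chr16:91372783-91405589), *Il10rb*, *Ifnar1* (chr16:91485238-91507441) and *Ifngr2* (chr16:91547072-91565623) lie in that order on the plus strand within 192841 bases. *Il10rb*, a chain shared by the receptors of IL-10 and interferon lambda, starts 574 bases after the end of *Ifnar2*. *Ifngr1* lies apart on chromosome 10 (chr10:19591949-19610229, plus strand).

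All values are deposited rlog values, a log2 scale in which the authors corrected for library size and pulled low counts toward the mean of the gene. The read depth of the libraries is not known from them. At the low untreated level of *Ifnb1* the shrinkage is strongest, so changes from 0 hr are likely to be understated there. A difference was called at an adjusted p below 0.05 in limma, over all genes tested. Whether the samples of a genotype came from different litters is not given, so p-values measure the spread between these mice.

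The cells had the genes of macrophages: all 8 macrophage markers were at 8.89 or higher in all 40 libraries, and the T cell markers were below 1.51. Of 5 plasmacytoid dendritic cell markers, *Siglech* was at most 2.90, *Pacsin1* at 2.20 to 3.57 and *Ccr9* at 3.08 to 5.73, while *Tcf4* and *Bst2*, which macrophages also express, were above 12; the part of such cells in the results was not tested. In bulk RNA, fewer cells of a type and less RNA per cell cannot be told apart. *Cpeb4* itself separated the genotypes at 6 hr (WT 10.1 to 10.7, *Cpeb4*-/- 8.74 to 9.66) and overlapped between them at 0, 1, 3 and 9 hr, where its gene level is no check of the labels. The libraries correlated with their own group at 0.993 to 0.998. The lowest was the WT mouse 87 library at 1 hr. At 1 hr WT 87 and 88, which share a cage, correlated with the *Cpeb4*-/- group at 0.988 and 0.991. The other WT libraries at 1 hr did so at 0.996 in both. Against its own group at 1 hr, WT 88 (0.996) was no lower than WT 25 (0.996) and WT 69 (0.995).

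*Ifnb1* rose within 1 hr of LPS in both genotypes and then declined. At 0 hr the WT libraries were at 3.61, 3.59, 3.71 and 3.63 for mice 25, 88, 69 and 87. At 1 hr they were at 8.09, 8.80, 7.73 and 8.74. Mice 88 and 87, whose 1 hr libraries correlated less with the *Cpeb4*-/- group than the other WT libraries did, were the 2 highest. At 3 hr the WT values were 7.65, 7.53, 7.48 and 7.99. At 6 hr they were 5.11, 5.59, 5.08 and 5.78, and at 9 hr 4.77, 5.10, 5.35 and 5.15. The WT level thus stayed well above its untreated value for the whole course.

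The *Cpeb4*-/- libraries followed the same outline from a similar start. At 0 hr they were at 3.77, 3.78, 3.84 and 3.64 for mice 3, 62, 2 and 55. At 1 hr they were at 7.34, 7.36, 7.92 and 7.88, so the 2 mice of batch 1 lay below every WT library. At 3 hr they were at 6.96, 6.83, 6.90 and 7.32, below all 4 WT libraries. At 6 hr they were at 5.57, 5.05, 5.64 and 5.68, where mouse 62 was just below the lowest WT library (5.08) and the others were within the WT spread. At 9 hr they were at 4.93, 3.997, 4.50 and 4.61, where 3 of 4 were below every WT library.

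**Figure D1:**
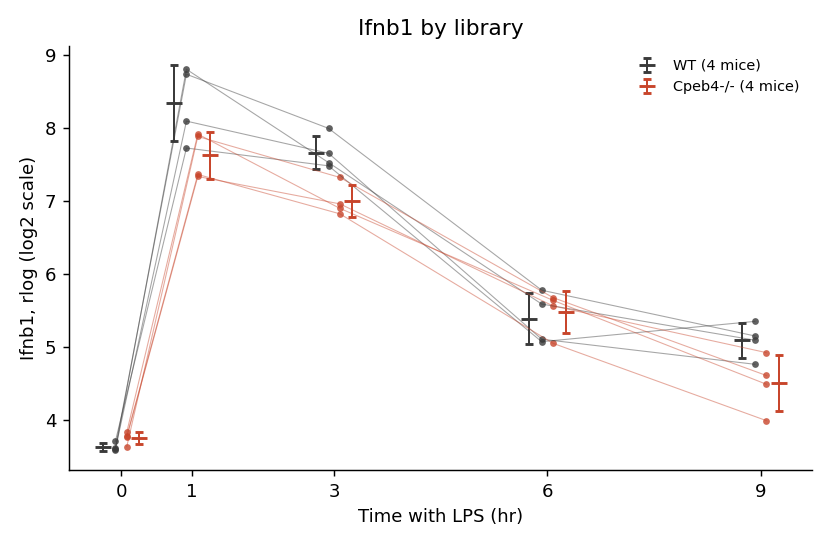
*Ifnb1* in each library. The x axis is time with LPS in hr (points are set slightly apart for visibility), the y axis the deposited rlog value (log2 scale); thin lines join the libraries of 1 mouse, dashes and bars are the mean and SD of 4 mice. Both genotypes were highest at 1 hr, and at 3 hr the *Cpeb4*-/- libraries (6.83 to 7.32) lay below the WT ones (7.48 to 7.99).

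In the model of all 40 libraries, *Ifnb1* rose by 4.70 (SE 0.20) from 0 to 1 hr in WT and by 3.87 (SE 0.20) in *Cpeb4*-/-, with adjusted p of 8.11e-21 and 2.83e-18 in limma. It then fell by 0.68 and 0.62 from 1 to 3 hr, and by 2.27 and 1.52 from 3 to 6 hr, all called, in WT and *Cpeb4*-/- respectively. From 6 to 9 hr the change was −0.30 in WT (adjusted p = 0.22, limma), where 1 of 4 mice had a higher value at 9 hr, and −0.98 in *Cpeb4*-/- (adjusted p = 0.000108), where 4 of 4 mice fell. At 9 hr *Ifnb1* was still above 0 hr by 1.46 in WT and 0.75 in *Cpeb4*-/-, both called. Changes between times were common: 37.7% of genes were called in WT and 41.9% in *Cpeb4*-/- from 0 to 1 hr, 62.9% and 62.2% from 1 to 3 hr, 66.8% and 62.9% from 3 to 6 hr, 54.4% and 51.5% from 6 to 9 hr, and 73.7% and 71.3% from 0 to 9 hr. The call from 1 to 3 hr was lost in WT without mouse 88 (−0.47, adjusted p = 0.086 in limma) and without both 87 and 88 (−0.34, adjusted p = 0.26), and in *Cpeb4*-/- without mouse 2 (−0.49, adjusted p = 0.084).

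Between the genotypes, *Ifnb1* was lower in *Cpeb4*-/- at 3 hr by 0.66 (SE 0.13, adjusted p = 0.031 in limma), a level of 0.632 times that of WT. The exact permutation p was 0.0286, the smallest that 4 against 4 libraries allow, and the difference was −0.70 within batch 1 and −0.63 within batch 2. At 3 hr 3.68% of the 13083 genes tested were called, and in 13.6% the libraries of the 2 genotypes did not overlap. The call at 3 hr was lost, with a difference of −0.60 to −0.67, when WT mouse 25 or *Cpeb4*-/- mouse 2, 3 or 62 was left out (adjusted p = 0.079 to 0.11).

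At 1 hr the difference was −0.71 (SE 0.245, 95% interval −1.26 to −0.17, adjusted p = 0.096 in limma) and at 9 hr −0.58 (SE 0.19, interval −1.02 to −0.15, adjusted p = 0.090), neither past the threshold. Exact permutation p values were 0.0857 and 0.0571. At 0 and 6 hr the differences were 0.12 (adjusted p = 0.55 in limma) and 0.10 (adjusted p = 0.77). The 1 hr difference was −1.10 within batch 1 and −0.33 within batch 2, and without WT mice 87 and 88 it was −0.28 (adjusted p = 0.54 in limma). With the replicate block, a fit over all 40 libraries that treats the mouse as a random effect, *Ifnb1* was lower in *Cpeb4*-/- at 1 hr (adjusted p = 0.010) and at 9 hr (adjusted p = 0.036). That fit called 33.0% of all genes at 1 hr and 18.1% at 9 hr, against 1.91% and 7.91% in the fit of the 8 libraries of each time.

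No change of *Ifnb1* over time differed between the genotypes past the threshold. In limma the difference of the changes, *Cpeb4*-/- minus WT, was −0.84 from 0 to 1 hr (adjusted p = 0.90 in limma), 0.05 from 1 to 3 hr, 0.76 from 3 to 6 hr (adjusted p = 0.25) and −0.68 from 6 to 9 hr (adjusted p = 0.24). From 0 to 9 hr it was −0.71 (adjusted p = 0.25). In these tests 0.00763%, 0.130%, 0.923%, 1.92% and 1.76% of genes were called, in the same order.

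Ordered by mean, the 10 groups ran from WT at 1 hr (8.34 ± 0.52, SD, n = 4) through WT at 3 hr and *Cpeb4*-/- at 1 hr to *Cpeb4*-/- at 3 hr (7.00 ± 0.22). Below these came both genotypes at 6 hr, then those of 9 hr with WT first, and last the untreated cells. Neighbours in that order overlapped in their libraries, apart from the steps around *Cpeb4*-/- at 3 hr and the step from *Cpeb4*-/- at 9 hr to *Cpeb4*-/- at 0 hr.

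The other ligands were at the floor of the table. None of the 19 type I and type III interferon genes listed beside *Ifnb1* reached the level needed for testing. Their highest value in any library was 0.86, and 8 of them were listed at 0 in all 40. *Ifng*, which encodes interferon gamma, was at most 1.64. *Ifnb1* was thus the only listed interferon gene with a level above that minimum in these libraries.

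**Figure D2:**
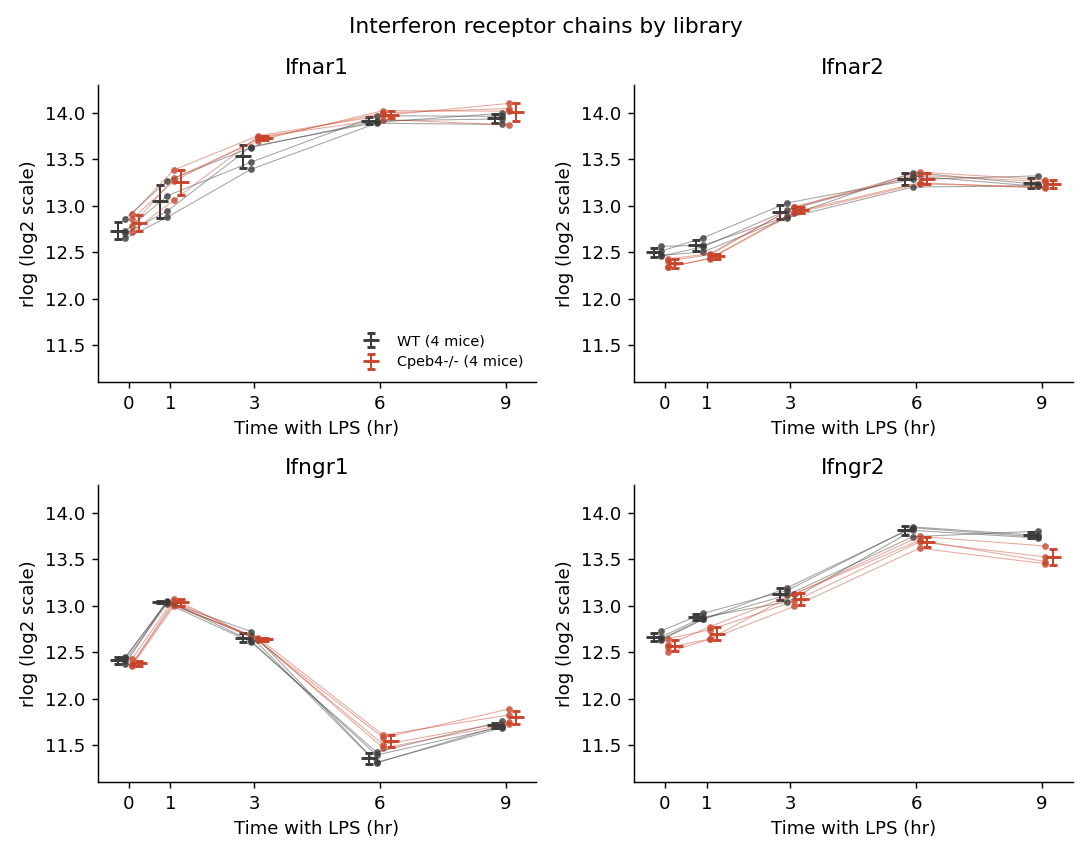
The 4 receptor chains in each library. The x axes are time with LPS in hr (points slightly apart for visibility) and the y axes the deposited rlog value, on 1 scale for all panels; lines join the libraries of 1 mouse, dashes and bars are mean and SD of 4 mice. *Ifnar1*, *Ifnar2* and *Ifngr2* were higher at 9 than at 0 hr, and *Ifngr1* was highest at 1 hr and lowest at 6 hr.

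The chains of the interferon beta receptor rose over the course. *Ifnar1*, which carries TYK2, had WT means of 12.73 ± 0.09, 13.05 ± 0.18, 13.53 ± 0.12, 13.92 ± 0.04 and 13.94 ± 0.05 (SD, n = 4) from 0 through 1, 3 and 6 to 9 hr. In *Cpeb4*-/- the means were 12.82, 13.25, 13.73, 13.98 and 14.01, with SDs of 0.02 to 0.14. The rise was 1.21 (SE 0.07) in WT and 1.19 (SE 0.07) in *Cpeb4*-/- from 0 to 9 hr, which is 2.31 and 2.28 times the untreated level, and 4 of 4 mice of each genotype rose. From 6 to 9 hr the changes were 0.02 and 0.03, with 2 of 4 mice higher at 9 hr in each genotype, while with quantile normalization they were 0.31 and 0.30 and were called. The earlier steps also depended on that setting. It ended the calls from 0 to 1 hr in both genotypes, and from 1 to 3 and 3 to 6 hr in WT. In *Cpeb4*-/- it turned the step from 3 to 6 hr into a small fall. The rise from 0 to 9 hr kept its call.

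*Ifnar1* lay slightly higher in *Cpeb4*-/- than in WT at every time, without passing the threshold. At 3 hr the *Cpeb4*-/- libraries were at 13.72, 13.75, 13.74 and 13.70 for mice 3, 62, 2 and 55. The WT libraries were at 13.47, 13.64, 13.63 and 13.39 for mice 25, 88, 69 and 87, all lower. At 3 hr the libraries of the genotypes did not overlap in 13.6% of genes. The difference was 0.20 (SE 0.06, adjusted p = 0.093 in limma, exact permutation p = 0.0286), with 0.18 and 0.21 within the batches. It was called with the replicate block (adjusted p = 0.039), which called 10.6% of genes at 3 hr, with quantile normalization (0.28, adjusted p = 0.040) and without WT mouse 88 (0.23, adjusted p = 0.024).

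At 1 hr the *Ifnar1* difference was 0.20 (SE 0.10, adjusted p = 0.16 in limma). The WT libraries were at 13.11, 12.94, 13.27 and 12.88 and the *Cpeb4*-/- libraries at 13.27, 13.38, 13.06 and 13.30. The 2 lowest values were those of WT mice 88 and 87, without which the difference was 0.06. With the replicate block it was called (adjusted p = 0.018), as were 33.0% of all genes at 1 hr. At 0, 6 and 9 hr the differences were 0.08, 0.06 and 0.07.

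*Ifnar2*, the chain that binds interferon with high affinity and docks JAK1, moved later. Over the same times its WT means were 12.50, 12.57, 12.93, 13.29 and 13.24, with SDs of 0.05 to 0.07. In *Cpeb4*-/- the means were 12.38, 12.46, 12.96, 13.29 and 13.23, with SDs of 0.03 to 0.06. The change in the first hour was 0.07 in WT (adjusted p = 0.16 in limma) and 0.08 in *Cpeb4*-/- (adjusted p = 0.13), although all 8 mice had a higher value at 1 hr. It was called as a rise with the mouse as a block (adjusted p = 0.045 and 0.033, with 43.6% and 48.3% of genes called) and as a fall with quantile normalization (−0.20 and −0.17). From 1 to 3 hr *Ifnar2* rose by 0.36 in WT and 0.50 in *Cpeb4*-/-, and from 3 to 6 hr by 0.36 and 0.34, all called; with quantile normalization the WT step from 1 to 3 hr was 0.07 and was not called. From 0 to 9 hr the rise was 0.74 (SE 0.04) and 0.85 (SE 0.04).

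Before LPS and at 1 hr *Ifnar2* was lower in every *Cpeb4*-/- library than in every WT library. At 0 hr the WT libraries were at 12.46, 12.47, 12.51 and 12.56, and the *Cpeb4*-/- libraries at 12.34, 12.41, 12.34 and 12.43. At 1 hr they were at 12.56, 12.50, 12.66 and 12.57 and at 12.43, 12.47, 12.44 and 12.48. The difference was −0.12 at both times (SE 0.04 and 0.05), with adjusted p of 0.20 and 0.11 in limma and an exact permutation p of 0.0286. No overlap was common: it held for 10.5% of genes at 0 hr and 15.7% at 1 hr, while 1.31% of genes were called at 0 hr. With the replicate block the 1 hr difference was called (adjusted p = 0.019), as were 33.0% of all genes. The difference at 0 hr, where the block called 3.16% of genes, was not called with it. At 3, 6 and 9 hr the differences were 0.02, 0.00 and −0.01, with 95% intervals of −0.09 to 0.13, −0.10 to 0.10 and −0.12 to 0.09.

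*Ifngr1*, the ligand-binding chain of the interferon gamma receptor, rose and then fell below its untreated level. Over the 5 times its WT means were 12.41, 13.04, 12.66, 11.36 and 11.71, with SDs of 0.01 to 0.06. Those of *Cpeb4*-/- were 12.38, 13.03, 12.64, 11.54 and 11.80. The changes in WT were 0.63 from 0 to 1 hr, −0.38 from 1 to 3 hr, −1.30 from 3 to 6 hr and 0.35 from 6 to 9 hr (SE 0.04 each), and each was called. In *Cpeb4*-/- the same steps were 0.66, −0.40, −1.10 and 0.26, also called, and 4 of 4 mice of each genotype moved the same way at each step. At 6 hr *Ifngr1* was at 0.482 times its untreated level in WT and at 0.559 times in *Cpeb4*-/-.

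Between the genotypes *Ifngr1* was called at 6 hr only, and its differences at 0 and 1 hr were −0.03 and −0.00. At 3 hr the WT libraries were at 12.62, 12.72, 12.67 and 12.61 and the *Cpeb4*-/- libraries at 12.64, 12.63, 12.66 and 12.63, a difference of −0.02 (95% interval −0.11 to 0.08). At 6 hr the WT libraries were at 11.39, 11.31, 11.31 and 11.42 for mice 25, 88, 69 and 87, and the *Cpeb4*-/- libraries at 11.47, 11.58, 11.61 and 11.50 for mice 3, 62, 2 and 55. All 4 *Cpeb4*-/- values lay above the WT ones. At 9 hr the values were 11.70, 11.69, 11.71 and 11.75 in WT and 11.73, 11.89, 11.82 and 11.75 in *Cpeb4*-/-, which overlapped.

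The *Ifngr1* difference at 6 hr was 0.18 (SE 0.04, adjusted p = 0.017 in limma, exact permutation p = 0.0286), a level of 1.13 times that of WT, and was 0.17 and 0.19 within the batches. At 6 hr 16.3% of genes were called, in the fit of the 8 libraries and also with the replicate block, and the genotypes did not overlap in 20.2%. The call was lost without WT mouse 69 (0.16, adjusted p = 0.054), without *Cpeb4*-/- mouse 2 (0.16, adjusted p = 0.063) and without WT mice 87 and 88 (0.19, adjusted p = 0.068). The fall from 3 to 6 hr was smaller in *Cpeb4*-/- by 0.20 (SE 0.05), the only one of the 25 differences between genotypes in a change over time that was called (adjusted p = 0.047). This call was lost in 7 of the 8 fits that left out 1 mouse, all but that without WT mouse 87, with differences of 0.16 to 0.23 over the 8 fits.

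*Ifngr2*, the accessory chain, rose over the course. Over the 5 times its WT means were 12.67, 12.88, 13.13, 13.81 and 13.75, with SDs of 0.03 to 0.07. The *Cpeb4*-/- means were 12.57, 12.70, 13.07, 13.69 and 13.52. From 0 to 9 hr it rose by 1.09 (SE 0.04) in WT and by 0.95 (SE 0.04) in *Cpeb4*-/-, that is to 2.13 and 1.94 times the untreated level. The largest step was from 3 to 6 hr, by 0.68 and 0.62. The smaller rises of the first hour, 0.21 in WT and 0.13 in *Cpeb4*-/-, were called but turned to −0.07 and −0.15 with quantile normalization. From 6 to 9 hr the change was −0.05 in WT (adjusted p = 0.30 in limma), and the fall of 0.16 in *Cpeb4*-/- (adjusted p = 0.00156) turned to 0.07 with quantile normalization. The difference between these 2 changes was −0.11 (adjusted p = 0.42).

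*Ifngr2* had a lower mean in *Cpeb4*-/- at all 5 times, although quantile normalization put the 3 hr difference at 0.0009, and the difference was called at 9 hr. At 9 hr the WT libraries were at 13.74, 13.73, 13.80 and 13.75 for mice 25, 88, 69 and 87. The *Cpeb4*-/- libraries were at 13.45, 13.47, 13.64 and 13.52 for mice 3, 62, 2 and 55, all lower, with mouse 2 the nearest to WT. That library of mouse 2 correlated less with its own group (0.994) than the other *Cpeb4*-/- libraries at 9 hr did. The difference was −0.23 (SE 0.05, adjusted p = 0.025 in limma, exact permutation p = 0.0286), a level of 0.851 times that of WT, and −0.27 and −0.19 within the batches. The libraries of the genotypes did not overlap in 16.9% of genes at 9 hr. Leaving out any of 7 of the 8 mice, all but *Cpeb4*-/- mouse 2, put the adjusted p at 0.050 to 0.082, above the threshold, with differences of −0.27 to −0.21 over the 8 fits. The call was also lost with quantile normalization (−0.17, adjusted p = 0.096) and without WT mice 87 and 88 (−0.25, adjusted p = 0.15).

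At 1 hr every *Cpeb4*-/- library was also below every WT library in *Ifngr2*, at a time when 15.7% of all genes did not overlap. The WT libraries were at 12.85, 12.87, 12.86 and 12.92 and the *Cpeb4*-/- libraries at 12.64, 12.64, 12.77 and 12.74. The difference was −0.18 (SE 0.05, adjusted p = 0.073 in limma) and was called with the replicate block (adjusted p = 0.0032), as were 33.0% of all genes. At 6 hr the WT libraries were at 13.84, 13.81, 13.74 and 13.85 and the *Cpeb4*-/- libraries at 13.62, 13.70, 13.74 and 13.68. The difference was −0.12 (SE 0.04, adjusted p = 0.070 in limma). It was called with the block (adjusted p = 0.035), as were 16.3% of all genes, but was −0.02 with quantile normalization. At 0 and 3 hr the differences were −0.10 and −0.06.

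Ordered by mean, the 10 groups of each chain were ranked mainly by time. For *Ifnar1* both genotypes of 9 and 6 hr came first and overlapped with their neighbours, and the libraries were apart at the steps from WT at 6 hr to *Cpeb4*-/- at 3 hr, from there to WT at 3 hr, and on to *Cpeb4*-/- at 1 hr. For *Ifnar2* the 4 groups of 6 and 9 hr overlapped, those of 3 hr lay apart below them, and untreated *Cpeb4*-/- cells came last, apart from *Cpeb4*-/- at 1 hr. For *Ifngr1* the order ran from 1 hr through 3, 0 and 9 hr to 6 hr, with each time apart from the next and, within a time, the genotypes apart only at 6 hr. For *Ifngr2* the groups of 6 and 9 hr came first, then those of 3 hr, then WT at 1 hr, and these sets were apart, while *Cpeb4*-/- at 1 hr overlapped with untreated WT.

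**Figure D3:**
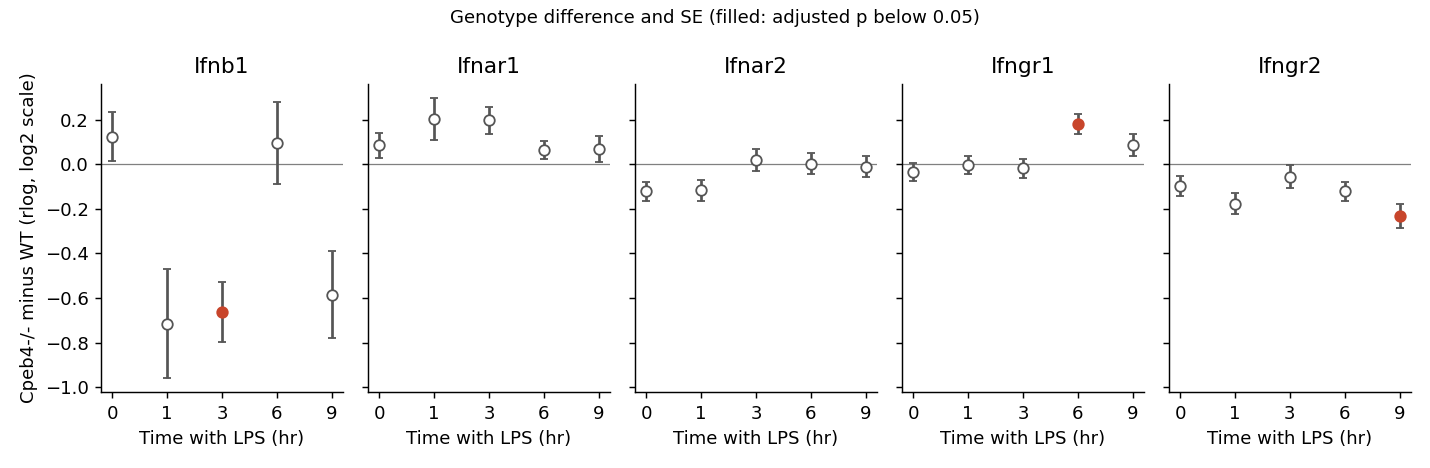
Genotype difference of the 5 genes at each time. The x axes are time with LPS in hr and the y axis *Cpeb4*-/- minus WT in rlog (log2 scale); points are limma estimates, bars 1 SE, and filled points have an adjusted p below 0.05 over all genes tested. The filled points are *Ifnb1* at 3 hr (−0.66), *Ifngr1* at 6 hr (0.18) and *Ifngr2* at 9 hr (−0.23).

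The 25 genotype differences thus held 3 calls: *Ifnb1* at 3 hr, *Ifngr1* at 6 hr and *Ifngr2* at 9 hr. That is 1 of 5 genes at each of these times and none at 0 or 1 hr, against 3.68%, 16.3% and 7.91% of all genes at 3, 6 and 9 hr and 1.31% and 1.91% at 0 and 1 hr. Those of the receptor chains were all between −0.23 and 0.20, and those of *Ifnb1* reached −0.71.

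Per kilobase of exon, the 2 chains of a receptor could be set side by side. On that scale (rlog minus the log2 of the exon length in kb) *Ifnar1* was below *Ifnar2* by 0.60 ± 0.11 (SD, n = 4) in WT at 0 hr, with the mean of *Ifnar1* minus *Ifnar2* going to −0.36, −0.24, −0.21 and −0.14 after 1, 3, 6 and 9 hr of LPS. In *Cpeb4*-/- it was −0.40 before LPS and then −0.04, −0.06, −0.15 and −0.06. The ranges of the genotypes met at 3, 6 and 9 hr and were apart at 0 hr (WT −0.75 to −0.49, *Cpeb4*-/- −0.48 to −0.32) and at 1 hr (−0.53 to −0.22 and −0.21 to 0.08). The nearest libraries were close, at −0.492 and −0.483 at 0 hr and at −0.223 and −0.213 at 1 hr. Among single genes, 10.5% did not overlap at 0 hr and 15.7% at 1 hr, and the share of gene pairs was not counted. The chains were thus nearest to the same level per length at the later times in WT. This depends on the length correction: without it *Ifnar1* was above *Ifnar2* in WT by 0.23 at 0 hr and by 0.70 at 9 hr.

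The interferon gamma receptor went the other way. *Ifngr1* minus *Ifngr2* was 0.15 ± 0.05 in WT at 0 hr and 0.57 ± 0.04 at 1 hr, and reached −2.04 ± 0.03 at 6 hr and −1.64 ± 0.04 at 9 hr. In *Cpeb4*-/- it was 0.21 ± 0.07, 0.74 ± 0.10, −1.74 ± 0.02 and −1.32 ± 0.10 at these times. At 6 hr the WT libraries ran from −2.09 to −2.02 and the *Cpeb4*-/- libraries from −1.78 to −1.72, and at 9 hr from −1.68 to −1.60 and from −1.41 to −1.18. These differences are a description, chosen after the values were seen, and were not tested.

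**Figure D4:**
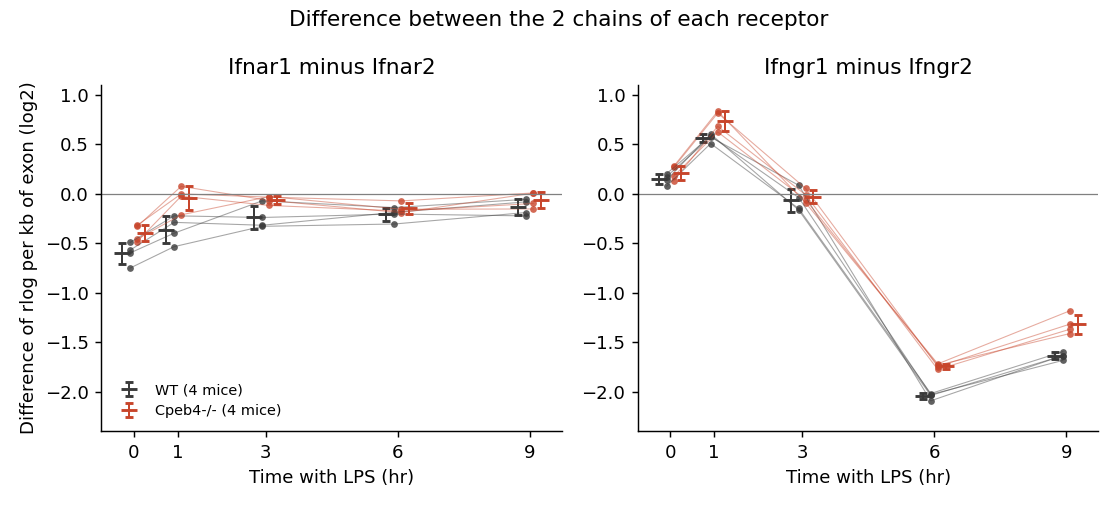
Difference between the 2 chains of each receptor in each library. The x axes are time with LPS in hr (points slightly apart for visibility), the y axis the difference of rlog per kb of exon (log2 scale); lines join the libraries of 1 mouse, dashes and bars are mean and SD of 4 mice, and the grey line marks equal levels per length. *Ifngr1* minus *Ifngr2* went from above 0 at 1 hr (WT 0.57) to far below it at 6 hr (WT −2.04).

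Over the 40 libraries, which share mice and times, *Ifnar1*, *Ifnar2* and *Ifngr2* correlated with each other at Pearson's r of 0.94 (*Ifnar1* with *Ifnar2*), 0.89 (*Ifnar1* with *Ifngr2*) and 0.96 (*Ifnar2* with *Ifngr2*), and *Ifngr1* was negatively correlated with each (−0.66, −0.79 and −0.83). *Ifnb1* was near 0 against *Ifnar1*, *Ifnar2* and *Ifngr2* and at 0.58 against *Ifngr1*, the other gene with its highest mean at 1 hr. *Il10rb*, the neighbour of *Ifnar2*, was at 12.8 to 13.4 in all libraries. Its WT means were 12.88, 13.02, 12.87, 13.32 and 13.29 over the 5 times, and it was called in none of the 5 comparisons between genotypes, but was called lower at 9 hr (−0.12) with the replicate block, which called 18.1% of all genes there. *Ifnlr1*, the specific chain of the interferon lambda receptor, was at most −1.01.

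The genes most like *Ifnb1* over the 40 libraries were *Arl5c*, *Csrnp1*, *Cxcl1*, which encodes a neutrophil-attracting chemokine, *Tnfsf9*, which encodes the ligand of 4-1BB, and *Mob3c*, with r of 0.95 to 0.96. For *Ifnar1* they were *Acsl1*, a long-chain acyl-CoA synthetase, *Zfp558*, *Tlr1*, *Cybb*, a subunit of the phagocyte NADPH oxidase, and *Mmp14* (r of 0.98). For *Ifnar2* they were *Tspan3*, *Zbp1*, a sensor of Z-form nucleic acid, *Upp1*, *Irf7* and *Fpr2* (r of 0.98 to 0.99). For *Ifngr1* they were *Tpm1*, *Ube2h*, *Pmp22*, *Ube2e3* and *Prmt3* (r of 0.96 to 0.97), and for *Ifngr2* *Chmp4b*, *Mvp*, *Tmbim6*, *Esrra* and *Actb* (r of 0.98 to 0.99).

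The genes around the members in the pathway were given by list. Of 17 genes that lead from TLR4 to *Ifnb1*, 3 were called lower in *Cpeb4*-/- and none higher at 3 hr, where 1.87% of all genes were called lower. At 6 hr 6 were lower, against 9.92% of all genes, and 1 was higher, with a list median of −0.09 against −0.02 over all genes tested. With quantile normalization 4 were lower and 1 higher at 6 hr, with a median of −0.01. The largest differences were in *Irf5* (−0.31, adjusted p = 0.0014 in limma), *Jun* (−0.27, adjusted p = 0.0069) and *Ikbke* (−0.26, adjusted p = 0.0040), a kinase related to TBK1. At 0 and 1 hr 1 gene was called lower at each time, and at 9 hr 3 were, against 0.565%, 0.938% and 3.22% of all genes. With the replicate block the calls after 1 hr were 4 upward with 4 downward, and after 9 hr 1 upward with 5 downward. That fit called 33.0% and 18.1% of all genes at these times, in either direction. Quantile normalization left 1 higher and 1 lower at 9 hr.

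Of 6 genes that carry the signal from the receptors, 4 were called lower at 6 hr, against 9.92% of all genes. None was called at 0, 1, 3 or 9 hr, although the replicate block called 2 higher at 1 hr and 1 higher at 9 hr. That fit called 33.0% and 18.1% of all genes at these 2 times, in either direction. The 4 lower at 6 hr included *Tyk2*, the kinase on IFNAR1 (−0.41, SE 0.06, adjusted p = 0.0014 in limma), *Stat3* (−0.21, adjusted p = 0.023) and *Stat2* (−0.20, adjusted p = 0.045), with a list median of −0.17. Of these 4, *Tyk2* alone was still called with quantile normalization, and likewise without WT mice 87 and 88.

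Of 9 genes listed for restraint of the receptors or their signal, 4 were called lower at 6 hr, against 9.92% of all genes, and none higher. The list was set by gene name, and whether each of them restrains the signal in these cells was not tested. With quantile normalization and also without WT mice 87 and 88, 2 were lower. *Usp18*, which displaces JAK1 from IFNAR2, differed by −0.45 (SE 0.06, adjusted p = 0.000595 in limma), *Ptpn1* by −0.30 (adjusted p = 0.000817) and *Isg15* by −0.24 (adjusted p = 0.015). At 3 hr 1 of the 9 was called lower, against 1.87% of all genes. With the replicate block 6 were, against 10.6% of all genes called either way. At 9 hr 4 were lower and 1 was higher, against 3.22% of all genes called lower and 7.91% called either way, and without WT mice 87 and 88 none was called. At 1 hr none was called, while the block called 2 higher and 3 lower, against 33.0% of all genes called either way.

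Of 12 genes that macrophages switch on in response to interferon, 5 were called lower at 3 hr, 9 after 6 hr and 1 after 9 hr of LPS, against 1.87%, 9.92% and 3.22% of all genes. None was called higher at any time, apart from 1 at 9 hr with quantile normalization and 1 with the replicate block, and the list medians were −0.31, −0.32 and −0.09 respectively. At 3 and 6 hr, 4 and 6 were called lower with quantile normalization, and 2 and 5 without WT mice 87 and 88, with list medians that stayed below 0. *Ifi44* (−0.60, adjusted p = 0.0013 in limma), *Rsad2* (−0.60, adjusted p = 0.0030) and *Ifit2* (−0.57, adjusted p = 0.0065) differed most at 6 hr. In untreated cells none of the 12 was called and at 1 hr 1 was called lower, with a list median of −0.17 at both times. The replicate block called 2 of them lower in untreated cells, then 6 after 1 hr, 8 after 3 hr, and 3 after 9 hr of LPS. At these times that fit called 3.16%, 33.0%, 10.6% and 18.1% of all genes, in either direction. Without WT mice 87 and 88 none was called at 0, 1 or 9 hr. In the step from 1 to 3 hr, 11 of the 12 rose in each genotype, against 29.3% of all genes in WT and 29.5% in *Cpeb4*-/-, with list medians of 2.69 in WT and 2.46 in *Cpeb4*-/-, and no difference between the genotypes in that step was called.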

How the data were processed

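RNA was measured in 40 libraries. The authors aligned reads to mm10 with STAR 2.3.0e, counted them per gene with featureCounts and deposited rlog values from DESeq2, a log2 scale corrected for library size; counts and depth are not in the deposited table, and the strand setting of the counting is not given in the sources used here. Small differences of *Ifnb1* at 0 hr are shaped by the shrinkage of low counts.

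Genes with a mean of at least log2 of 5 were tested with limma 3.58.1 (R 4.3.3, lmFit and eBayes with trend) and Benjamini-Hochberg adjustment over all genes. Genotypes were compared within the 8 libraries of a time. Changes over time and their difference between genotypes came from 1 model of 10 group means over the 40 libraries. Beside genotype differences stand exact permutation tests (two-sided, 4 mice against 4). The script was tested on simulated data. All mice gave all times, so the mouse number pairs libraries across times: deviations from group means of the same mouse at different times had a median correlation of 0.29, against −0.09 between different mice. The replicate block was the mouse, as a random effect for genotypes and a fixed effect for times.

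The members and lists were chosen with earlier results of these data known. In the list of receptor signalling, 1 gene is not reported here. The genes named beside the members were the 5 with the highest r to each, and in each pathway list up to 3 with the largest genotype difference among those called at 6 hr. Promoters came from RefSeq (GRCm38.p6), where all 5 members matched, and 3′UTRs from GENCODE M21 as the longest per gene. The CPE forms counted were UUUUAU with its longer form UUUUAAU and the still longer UUUUAAAU, the variants UUUUACU as well as UUUUCAU, the form UUUUAAGU, and finally UUUUGU. Alternatives were other filters, eBayes without trend or robust, batch as a covariate, quantile normalization, the replicate block, 1 fit of all libraries, leaving out each mouse and, chosen after seeing the data, leaving out WT mice 87 and 88. Beside the lists of the report, markers of B cells, NK cells, neutrophils, conventional dendritic cells, erythroid cells and fibroblasts were read: their highest values were 6.55 (*Cd79b*), 3.59, 5.00, 7.06 (*Xcr1*), 2.83 and 4.62.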

Additional observations from a re-analysis of the deposited data

Results flagged for a closer look

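The change of *Ifngr1* from 3 to 6 hr differed between the genotypes by the test of that difference itself: it was −1.30 in WT and −1.10 in *Cpeb4*-/-, 0.20 higher in *Cpeb4*-/- (adjusted p = 0.047 in limma). No library of the 5 genes stood apart from the other 3 of its group by Dixon's test in any of the 50 groups, where chance would single out about 2.5.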

How the results depend on the processing

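The 5 genes had 100 values (25 genotype differences, 50 changes over time, 25 differences between them). Under all alternatives run, 68 kept their side of the threshold. A change of direction was counted only where a value was called. Uncalled values could change sign, as *Ifnb1* between genotypes at 6 hr did (0.0954, and −0.009 without WT mouse 69). Requiring a mean of at least 5 gave no value for *Ifnb1* between genotypes at 0 and 9 hr. The cause of the changes was not tested. With quantile normalization, changes over time reversed in *Ifnar2* from 0 to 1 hr (−0.20 in WT, −0.17 in *Cpeb4*-/-) and from 6 to 9 hr (0.21 and 0.16), in *Ifngr2* from 0 to 1 hr (−0.073 and −0.15), from 1 to 3 hr in WT (−0.061) and from 6 to 9 hr (0.23 and 0.071), and in *Ifnar1* from 3 to 6 hr in *Cpeb4*-/- (−0.0255). It ended the calls of *Ifnar1* from 0 to 1 hr (0.054 and 0.17), from 1 to 3 hr in WT (0.16) and from 3 to 6 hr in WT (0.088), of *Ifnar2* from 1 to 3 hr in WT (0.067), of *Ifngr2* from 1 to 3 hr in *Cpeb4*-/- (0.11) and at 9 hr between genotypes (−0.17), and of the *Ifngr1* difference in change from 3 to 6 hr (0.17). It added calls for *Ifnar1* between genotypes at 3 hr (0.28) and 6 hr (0.17) and from 6 to 9 hr (0.31 in WT, 0.30 in *Cpeb4*-/-). Scaling moved the median of all genes by less than 0.1.

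With the replicate block, which leaves the estimates as they were, genotype differences were called also for *Ifnb1* at 1 hr (−0.71) and 9 hr (−0.58), *Ifnar1* at 1 hr (0.20) and 3 hr (0.20), *Ifnar2* at 1 hr (−0.12) and *Ifngr2* at 1 hr (−0.18) and 6 hr (−0.12), as were the changes of *Ifnar2* from 0 to 1 hr (0.073 and 0.077); it changed no other call. Between genotypes the block called 33.0%, 10.6%, 16.3% and 18.1% of all genes at 1, 3, 6 and 9 hr. The fit of all 40 libraries without the block called the same genotype differences except that of *Ifnar1* at 3 hr. Without the trend, *Ifnb1* at 3 hr (−0.66, adjusted p = 0.057 in limma), *Ifngr1* at 6 hr (0.18, adjusted p = 0.053) and *Ifngr2* at 9 hr (−0.23, adjusted p = 0.052) missed the threshold. So did the *Ifngr1* difference in change (0.20) with no filter, without the trend and with robust eBayes (adjusted p = 0.057, 0.060 and 0.051). Without WT mice 87 and 88, calls were lost for *Ifngr1* at 6 hr (0.19), *Ifngr2* at 9 hr (−0.25), *Ifnb1* in WT from 1 to 3 hr (−0.34) and the *Ifngr1* difference in change (0.20).

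Leaving out 1 mouse at a time changed calls with ranges of −0.92 to −0.56 (*Ifnb1* at 1 hr, called without WT mouse 69), −0.77 to −0.55 (*Ifnb1* at 3 hr), 0.15 to 0.23 (*Ifnar1* at 3 hr), 0.16 to 0.20 (*Ifngr1* at 6 hr), −0.20 to −0.16 (*Ifngr2* at 1 hr, called without WT mouse 69), −0.27 to −0.21 (*Ifngr2* at 9 hr), 0.11 to 0.14 (*Ifngr2* from 0 to 1 hr in *Cpeb4*-/-, lost without mouse 2), −0.82 to −0.47 and −0.71 to −0.49 (*Ifnb1* from 1 to 3 hr in WT and *Cpeb4*-/-) and 0.16 to 0.23 (*Ifngr1*, difference in change).

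The number of genes called between genotypes at 0, 1, 3, 6 and 9 hr was 171, 251, 481, 2129 and 1029. It was 414, 4323, 1393, 2137 and 2378 with the replicate block and 326, 4182, 1311 and 2280 in the fit of all libraries at 0, 1, 3 and 9 hr. Without 1 mouse it ran from 44 to 163, 40 to 2440, 76 to 2584, 1347 to 2331 and 387 to 4575. With batch as a covariate it was 146, 194 and 1781 at 1, 3 and 9 hr, without the trend 230 at 3 hr, and without WT mice 87 and 88 99, 974 and 155 at 1, 6 and 9 hr. For the differences between genotypes in a change, the counts were 1, 17, 121, 252 and 231 (0 to 1, 1 to 3, 3 to 6, 6 to 9 and 0 to 9 hr), against 77, 392, 737 and 654 with the block for the last 4, 147 with quantile normalization and 153 without WT mice 87 and 88 for 6 to 9 hr, and 37 without these mice for 3 to 6 hr. Without 1 mouse they ran from 0 to 2, 0 to 29, 19 to 99, 50 to 198 and 89 to 226. From 0 to 1 hr the count was 4 with no filter, 0 with a mean of at least 5 and 2 without WT mice 87 and 88; from 1 to 3 hr it was 28 with batch as a covariate and 0 without these mice. Quantile normalization moved the split of higher calls from 2548 of 4944 to 2063 of 5459 (WT) and from 2958 of 5495 to 2304 of 6085 (*Cpeb4*-/-) from 0 to 1 hr, from 835 of 2129 to 1025 of 2011 between genotypes at 6 hr, and from 64 of 121 to 57 of 90 for the difference in change from 3 to 6 hr. Depth limits are unknown, since the table holds no counts.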
